A study of Pomacea canaliculata with 34 samples.

Results

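The genes described here are the 150 steadiest of the apple snail Pomacea canaliculata over development, in a count table of 21131 genes. They were chosen from the measured values themselves. Counts were divided by the total of their library, expressed per 1000000 reads (CPM) and averaged within each of the 10 stages. Among the 5352 genes whose lowest stage mean was 20 to under 500 CPM, called the band below, the 150 with the smallest ratio of the highest to the lowest stage mean were taken. The ratios and stage means of these genes are therefore a description, and no test supports them.

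The animals were whole embryos taken out of their eggs at Stage 2 to Stage 10, and whole hatchlings, of this freshwater gastropod with camera-type eyes. The labels give no strain, treatment or genotype. Polyadenylated RNA was sequenced in 34 libraries. Stages up to Stage 7 have 3 libraries each, while later stages and hatchlings have 4 each. The labels do not say whether the libraries of a stage came from separate clutches, so every spread and p-value measures the difference between these libraries only, which may be technical. Library totals ran from 13392123 to 95942469 reads. They were at most 23030901 in stages up to Stage 7 and at least 27995708 at Stage 10 and in hatchlings, so depth cannot be told apart from stage between these. Whole animals hold all cell types, so a steady level can hide opposite changes in different tissues, and fewer cells of a type cannot be told from less RNA per cell.

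Genes read at a near-constant share of the RNA in every stage are often those that every cell needs, such as parts of the machinery for transcription, splicing, protein synthesis and protein breakdown, and such genes serve as references in quantitative PCR. An early embryo starts with RNA loaded into the egg by the mother and later relies on its own transcription, so a constant level over development can join RNA from both sources. Sequencing gives each gene as a share of all RNA read. A constant share is a constant amount per animal only where total RNA is constant, and total RNA was not measured here. All 150 genes carry an NCBI LOC identifier, and neither the count table nor the gene table used for names pairs it with a product. No function is therefore given for any of them.

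The steadiest gene, LOC112553799, stood near 51.4 CPM throughout. Early libraries read 48.8, 54.9 and 52.8 CPM (Stage 2), then 53.1, 42.8 and 54.65 CPM (Stage 3) and 53.4, 51.9 and 47.6 CPM (Stage 4). In the middle of the series they read 52.5, 48.3 and 54.03 CPM (Stage 5), 53.1, 51.2 and 48.4 CPM (Stage 6) and 48.5, 52.8 and 55.9 CPM (Stage 7). These values lie on both sides of the overall mean at every one of these stages. The sets of 4 libraries read 51.5, 52.05, 48.3 and 54.1 CPM (Stage 8), 53.9, 46.7, 47.6 and 48.02 CPM (Stage 9), 52.6, 51.7, 52.4 and 55.9 CPM (Stage 10) and 50.6, 56.8, 51.1 and 48.3 CPM (hatchling). Libraries of each stage overlapped those of every other stage. The lowest stage mean, 49.1 CPM at Stage 9, and the highest, 53.2 CPM at Stage 10, differed 1.08-fold. The lowest and the highest single libraries, replicate 2 of Stage 3 and replicate 2 of the hatchling, differed 1.33-fold.

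The next genes in the order had larger ratios and stood at other levels. Unlike LOC112553799, most of them had a highest and a lowest stage whose libraries did not overlap. These stages were picked as extremes from the same libraries, which by itself favours a lack of overlap. LOC112555703, for example, read 86.6 to 90.1 CPM in hatchling libraries and 96.7 to 105.0 CPM in those of Stage 5. For LOC112576588 the libraries of the highest and lowest stages did overlap. LOC112576161 ran from 98.0 CPM at Stage 9 to 107.7 CPM at Stage 5 in its stage means, a ratio of 1.10, and from 89.9 to 116.8 CPM in single libraries, with a median of 101.7 CPM. LOC112559460 ran from 51.8 CPM at Stage 9 to 57.7 CPM at Stage 6, and LOC112574414 from 137.2 CPM at Stage 2 to 155.2 CPM at Stage 10. LOC112576501 was lowest at Stage 5 with 301.1 CPM and highest at Stage 8 with 340.8 CPM, a ratio of 1.13. LOC112555703 rested at 88.6 CPM in the hatchling and 100.4 CPM at Stage 5. LOC112560928 and LOC112555114 had their highest stage mean at Stage 2, at 96.04 and 65.8 CPM, against lowest stage means of 84.3 CPM at Stage 5 and 57.7 CPM at Stage 3. LOC112566628 was lowest in the hatchling with 49.1 CPM and highest at Stage 7 with 56.2 CPM, whereas LOC112576588 was highest in the hatchling with 47.0 CPM and lowest at Stage 3 with 41.0 CPM. The 10 steadiest genes thus had no common stage of highest or lowest level.

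**Figure D1:**
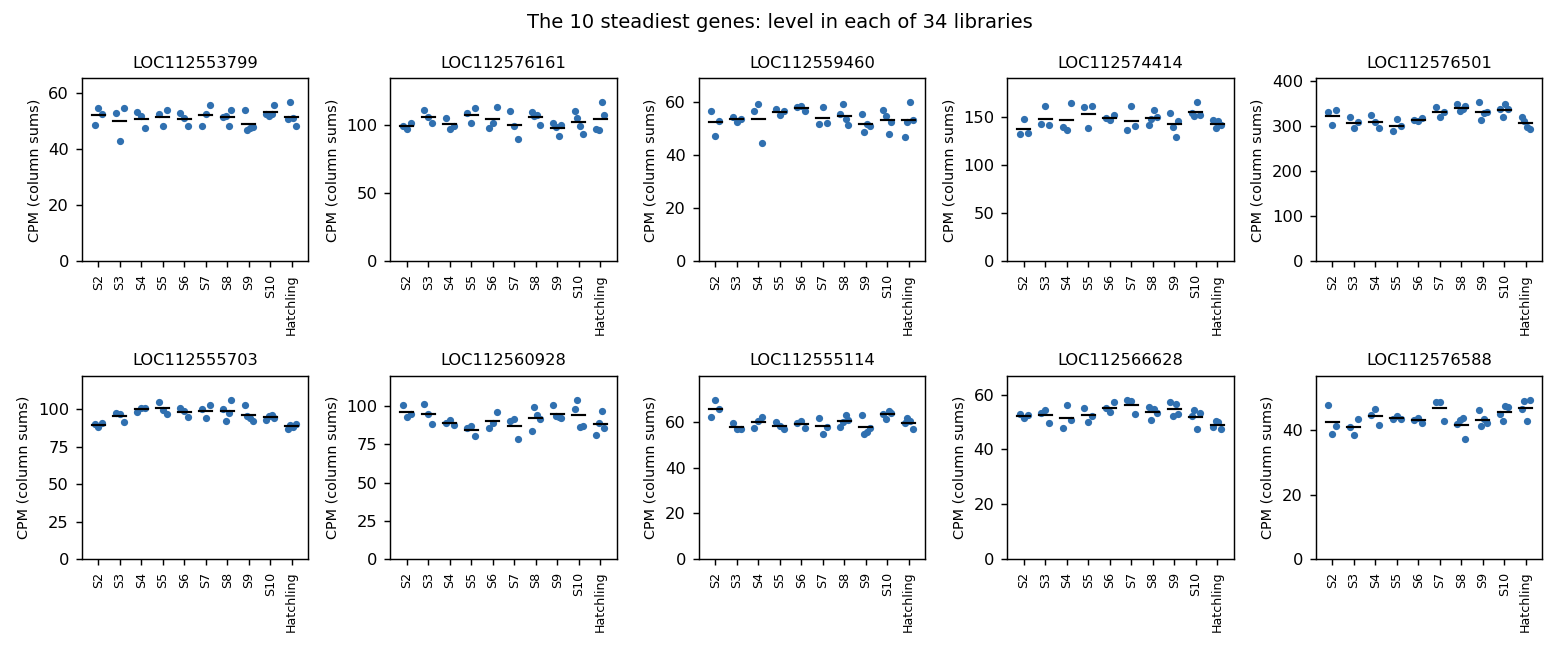
Level of the 10 steadiest genes in CPM (linear axis from 0) by stage (S2 to S10 for Stage 2 to Stage 10, and the hatchling); each point is 1 library and each bar the stage mean. LOC112553799, at the top left, stays between 42.8 and 56.8 CPM in all 34 libraries, and the 10 genes share no common stage of highest or lowest mean.

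Over all 150 genes the ratio of highest to lowest stage mean ran from 1.08 to 1.26 with a median of 1.21, and 56 genes lay under 1.2. The median ratio over the 5352 genes of the band was 2.05, and 17.2% of them lay under 1.5. The 150 least steady genes of the band, for contrast, had ratios from 7.33 to 50.7. The order has no step at the last place taken. Just inside stood LOC112565759 at 1.255, LOC112562345 at 1.256 and LOC112553162 at 1.256, and just outside LOC112566733 at 1.257, LOC112553723 at 1.257 and LOC112554319 at 1.257.

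**Figure D2:**
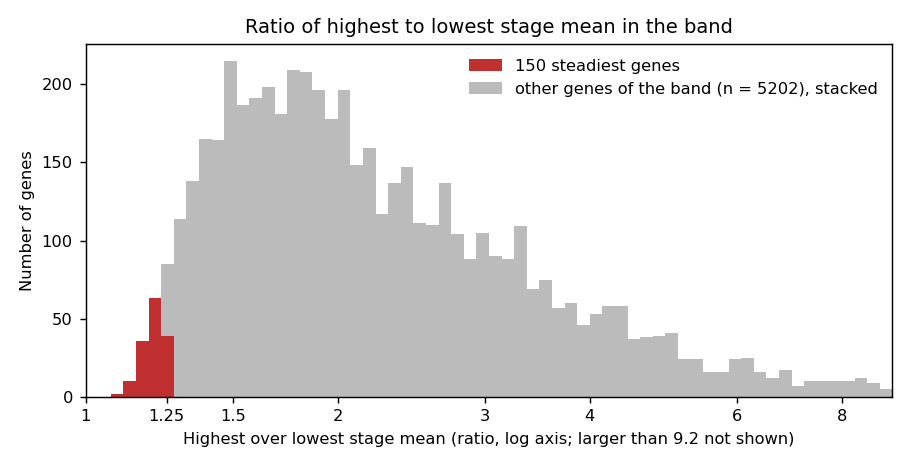
Number of genes (linear axis) by ratio of the highest to the lowest stage mean (log axis) for the 150 steadiest genes (red) and the other 5202 genes of the band (grey, stacked on the red); 88 genes above the right end are not drawn. The 150 genes form the left edge of a continuous distribution, from 1.08 to 1.26.

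Levels in CPM are not corrected for transcript length and do not rank genes by molecules. Within the chosen genes the mean over stages ran from 22.5 CPM for LOC112574308 to 497.3 CPM for LOC112571999, with a median of 54.4 CPM against 74.8 CPM over the band. Of the 150 genes, 42.7% lay under 50 CPM against 28.1% of the band, and 24.7% at 100 CPM or more against 36.4%. LOC112571999 had its lowest stage mean at Stage 2, at 432 ± 34.7 CPM (SD, n = 3), and its highest at Stage 3, at 533 ± 25.2 CPM (n = 3). LOC112574308 ran from 20.8 CPM at Stage 9 to 24.7 CPM at Stage 2, and the other genes of lowest level, LOC112557981 and LOC112570655, peaked in hatchlings, with stage means of 25.9 and 26.0 CPM. Above the band, with a lowest stage mean of 500 CPM or more, 2 of 105 genes had a ratio no larger than that of the last gene taken. They were LOC112563363, from 1732 CPM at Stage 5 to 2085 CPM at Stage 2, and LOC112565351, from 920.3 CPM in the hatchling to 1124 CPM at Stage 2, both picked out after their values were seen.

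The small differences that remained had no single stage of highest or lowest level, but were unevenly spread over the stages. The highest stage mean was at Stage 10 for 27 of the 150 genes, at Stage 7 for 26, at Stage 2 for 21, at Stage 8 for 16 and at Stage 9 for 2. The lowest was at Stage 2 for 33 genes, in the hatchling for 32, at Stage 9 for 25, at Stage 3 for 23 and at Stage 6 for 2. Stage 2 or the hatchling thus held the lowest mean of 43.3% of these genes, against 72.5% of the band. Together the 150 genes took 1.23% ± 0.0312 of the reads at Stage 2 (SD, n = 3) and 1.27% ± 0.0172 at Stage 6 (n = 3). Their share was 1.28% ± 0.0141 in the Stage 10 libraries and 1.21% ± 0.0432 in those of hatchlings (n = 4 each).

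Part of the remaining spread was shared by whole libraries. With each gene set to its own mean over stages, the median of the 150 genes was 104.1% in replicate 1 of Stage 9 and 95.3%, 94.5% and 95.7% in replicates 2, 3 and 4 of that stage. In the hatchling it was 91.8% in replicate 1 and 98.9%, 97.9% and 95.4% in the others. These were the highest and the lowest of the 34 libraries. Replicate 1 of the hatchling held the lowest library value of 31 of the 150 genes, and replicate 2 of Stage 2 that of 16. The band moved with them, with a median over its 5352 genes of 94.3% in replicate 1 of Stage 9 against 88.0% to 89.3% in the others of that stage, and of 81.4% in replicate 1 of the hatchling against 84.2% to 86.0%. Replicate 1 of the hatchling was also the most deeply read library, and the part of depth in its low value was not tested. Without these 2 libraries the rule chose 137 of the 150 genes again, a choice of libraries made after seeing the data, and the median ratio of the 150 genes was 1.21 as before.

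**Figure D3:**
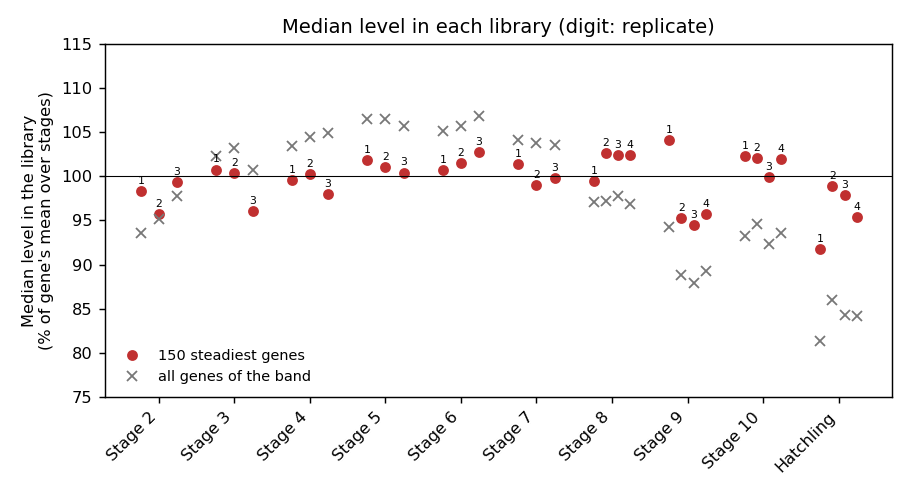
Median level in each library as a percent of each gene's mean over stages (linear axis that does not start at 0), for the 150 steadiest genes (red points, with the replicate number) and for all genes of the band (grey crosses). Replicate 1 stands above the others at Stage 9, at 104.1%, and below them in the hatchling, at 91.8%, and the crosses shift the same way.

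Spread within stages was a measure that the rule did not use directly, although noise within a stage also widens the ratio of stage means. The median coefficient of variation (CV, SD over mean) among libraries of a stage was 5.10% over the 150 genes and 5.91% over the band. Counting error alone, taken for each gene as the median over libraries, gave a median CV of 2.86% for these genes. The lowest count behind any of their library values was 260 reads. The CV of the 10 stage means had a median of 6.24% against 23.2% in the band. For 51 of the 150 genes (34%) the spread among libraries of one stage was larger than that of the stage means, against 2.35% of the band. The rule chose genes for level stage means, so this contrast and that of the CV of stage means were set by the choice.

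The members differed widely in this respect. LOC112563720 had the smallest within-stage CV, 2.56%, and its libraries read 257, 258 and 277 CPM (Stage 2), 250.4, 262 and 255 CPM (Stage 7, its lowest stage) and 302, 309.6, 307 and 314 CPM (Stage 10, its highest). The Stage 10 libraries lay above all of Stage 2 and Stage 7, so its ratio of 1.204 rests on a difference larger than the spread between these libraries. Stage 10 and Stage 7 were picked as extremes from the same values, which by itself favours a lack of overlap. LOC112577120 (2.59%) and LOC112567133 (2.89%) came next. LOC112559260 had the largest, 13.5%, and its libraries read 82.8, 67.7 and 67.1 CPM (Stage 4, its highest stage), 49.7, 77.1, 54.2 and 54.8 CPM (Stage 8, its lowest) and 81.9, 55.8, 51.1 and 51.2 CPM (Stage 9). The libraries of its highest and lowest stages overlapped, so its ratio of 1.23 lies within the spread between libraries. LOC112572462 (10.9%) and LOC112570185 (10.3%) were similar. A small ratio of stage means thus covered both genes that repeated closely and genes whose libraries scattered around a level mean.

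**Figure D4:**
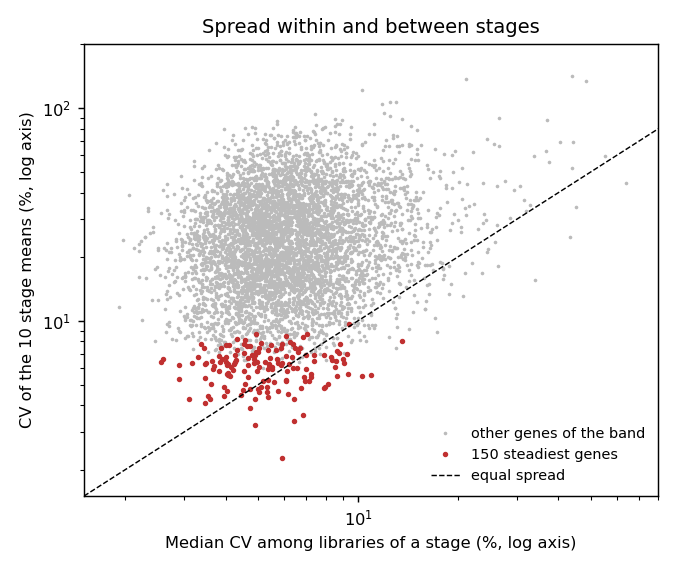
CV of the 10 stage means against the median CV among libraries of a stage, in percent on log axes, for the 150 steadiest genes (red) and the other genes of the band (grey). The dashed line marks equal spread, and 51 of the 150 genes lie below it.

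Steadiness was also read in libraries that had no part in the choice. All libraries of 1 replicate number were left out, 150 genes were chosen from the rest, and the left-out libraries, 1 per stage, were read. The left-out libraries share the scaling by totals, and possibly clutches, with the others. The values are therefore a description and no independent test. Of the genes so chosen, 112, 119 and 118 were among the 150 when replicate 1, 2 and 3 was left out, and 76 of the 150 genes were chosen all 3 times, with all of the 10 steadiest among them. Of those 10, which had been picked with all libraries, 6, 5 and 6 were again among the 10 steadiest of each choice. In the left-out libraries the median ratio of the highest to the lowest of the 10 values was 1.33, 1.31 and 1.32, against 1.22, 1.22 and 1.22 in the libraries of the choice. Over all band genes the same libraries gave 2.21, 2.13 and 2.14. Of the 150 chosen genes 88.0%, 90.7% and 92.7% stayed under a ratio of 1.5 in the left-out libraries, against 11.8%, 14.6% and 12.8% of the band. The geometric mean of the 10 steadiest genes of each choice varied 1.10-fold, 1.17-fold and 1.13-fold over the 10 left-out libraries. A ratio of single libraries was wider than one of stage means for the band too, where stage means gave 2.05.

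The steadiness was relative to the total of reads, and another scaling gave another picture. TMM, which sets libraries so that most genes tend to change little between them, scaled the library totals by a mean factor of 0.794 at Stage 2 and 1.08 in the hatchling. With it the median of the 150 genes was 121.5% of each gene's own mean at Stage 2, 101.6% at Stage 5, 89.2% at Stage 9, 89.8% at Stage 10 and 87.6% in the hatchling. With the size factors of DESeq2 it was 122.9% at Stage 2, 90.6% at Stage 7 and 93.5% in the hatchling. With column sums it had stayed between 96.3% and 102.0%. The median ratio of highest to lowest stage mean was 1.47 with TMM and 1.42 with the size factors, and all 150 genes stayed under 2 with both. LOC112553799, the steadiest with column sums at 1.08, had a ratio of 1.44 with TMM. It stood at 65.7 TMM-scaled CPM at Stage 2 and at 47.8 in the hatchling, which was not its lowest stage.

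**Figure D5:**
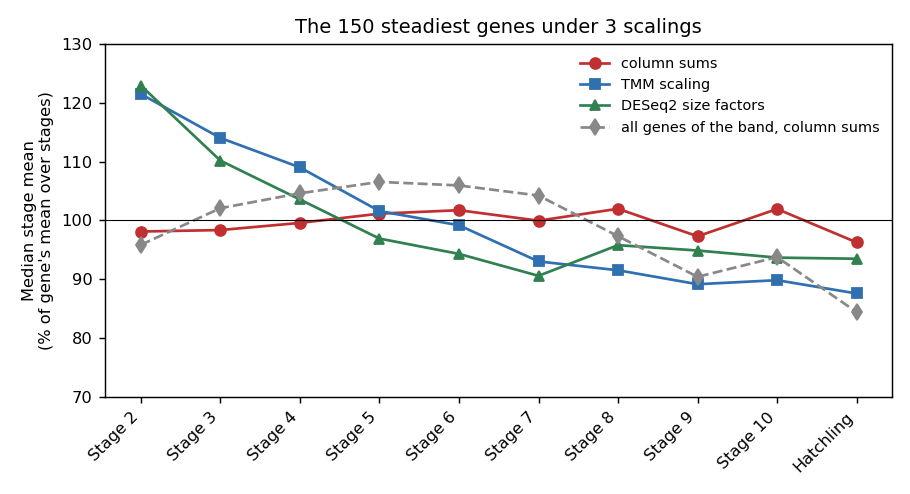
Median stage mean of the 150 steadiest genes as a percent of each gene's mean over stages (linear axis that does not start at 0) with column sums, TMM and DESeq2 size factors, and of all genes of the band with column sums. The genes are level with column sums, between 96.3% and 102.0%, and start above 120% of their mean at Stage 2 with both other scalings.

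The edgeR quasi-likelihood fit of all genes used TMM and compared the stages in which the genes had been chosen, so its calls are a description and support nothing. In the F-test over all stages 148 of the 150 genes were called at an adjusted p under 0.05, where 95.4% of the 17441 tested genes were. The exceptions, LOC112562034 (edgeR adjusted p = 0.0536) and LOC112565583 (edgeR adjusted p = 0.0768), had libraries from 27.2 to 49.4 CPM and from 34.7 to 66.5 CPM. With column sums in the same fit 94 of the 150 genes were called, where 95.7% of all genes were. For the hatchling against Stage 2, 148 genes were called with TMM, where 86.2% of all genes were. All 148 were lower in the hatchling and 0 higher, where 34.2% of all genes were called lower and 52% higher, and 66.7% of the band lower and 21.3% higher. The genes not called were LOC112558261, at -0.15 ± 0.0927 (log2 ± SE; adjusted p = 0.125 in edgeR), and LOC112559051, at -0.15 ± 0.0745 (adjusted p = 0.0549 in edgeR). In the test over all stages, a likelihood-ratio test in DESeq2 and an F-test in the others, LOC112562034 was called under 22 of 39 alternatives and LOC112565583 under 4 of 39. For the hatchling against Stage 2 LOC112558261 was called under 1 of 40 alternatives, higher in the hatchling with column sums. LOC112559051 was called under 31 of 40, higher with column sums at a log2 fold change of 0.29 and lower in the others. With DESeq2 138 genes were called lower and 0 higher, where 15091 of the 17441 tested genes were called, 62.0% of these higher. With column sums 51 genes were called, where 86.5% of all genes were. Of these 34 were lower and 17 higher, where 25.9% of all genes were lower and 60.6% higher. The rule chose genes with near-equal column-sum means, so the lack of a single direction with column sums was set by the choice. The single direction with TMM and DESeq2 was set by the same choice together with the scaling. Both scalings lower the hatchling against Stage 2 for all genes alike. The median log2 fold change over all tested genes was 0.56 with TMM and 0.64 with DESeq2, against 1.01 with column sums.

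The size of these differences was limited by the rule. The log2 fold change of the hatchling against Stage 2 with TMM ran from -0.76 to -0.13 over the 150 genes with a median of -0.45 and a median SE of 0.0691, and against a minimum of 1.5-fold 14 genes were called, where 70.1% of all genes were. With column sums 79 of the 150 genes were called in any of the 9 steps between neighbouring stages, and 14675 of the 17441 tested genes. With TMM 100 of the 150 genes were called in any step, where 83.6% of all genes were. Against the 1.5-fold minimum edgeR called 0 in any step, where 30.9% of all genes were, and 0 of the 150 had an unadjusted p under 0.05. Stage means chosen to lie within 1.26-fold leave little room for a step of that size, so nothing is read from this count.

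A scaling shifts all genes of a library alike. The median log2 fold change of the hatchling against Stage 2 was -0.45 for the 150 genes, 0.56 for all tested genes and -0.63 for the band with TMM, and -0.0022, 1.01 and -0.18 with column sums, where the value near 0 of the 150 genes is set by the rule that chose them.

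Another scaling chose other genes. The same rule on TMM-scaled levels gave 150 genes of which 3 were among those described here, and on size-factor levels again 3, while the choices of TMM and of the size factors shared 76. The genes shared with TMM were LOC112554811, LOC112558154 and LOC112559051, and those shared with the size factors LOC112556377, LOC112558154 and LOC112567133. They are named after their values were seen. The 150 genes chosen with TMM had a median ratio of 1.21 with TMM and of 1.49 with column sums, while the 150 genes described here had 1.47 with TMM.

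One gene, LOC112558154, was among the 150 under all 3 scalings. Its stage means with column sums were 38.9 ± 1.08 CPM at Stage 2, 38.9 ± 0.951 CPM at Stage 3 and 43.4 ± 4.92 CPM at Stage 4 (SD, n = 3 each). They were 43.1 ± 1.44 CPM at Stage 5, 42.4 ± 5.41 CPM at Stage 6 and 45.5 ± 3.75 CPM at Stage 7 (n = 3 each). Later they were 47.0 ± 1.88 CPM for Stage 8, 43.3 ± 6.26 CPM for Stage 9, 48.1 ± 1.69 CPM for Stage 10 and 43.0 ± 2.49 CPM for hatchlings (n = 4 each). The libraries thus scattered most at Stages 4, 6, 7 and 9. Its ratio of highest to lowest stage mean was 1.24 with column sums, 1.23 with TMM and 1.24 with the size factors. Single libraries ran from 36.5 to 52.4 CPM with a median of 43.6. In TMM-scaled CPM it stood at 48.9 at Stage 2 and at 39.7 in the hatchling, so the order of these stages turned with the scaling.

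The genes were scattered along the gene order of the reference assembly. Of the 150 genes 60.0% lay next to a gene of the band, and of all band genes 61.9% did. Only 1 pair of the 150 lay next to each other, LOC112576161 and LOC112576160. Both had their highest stage mean at Stage 5, at 107.7 and 187.2 CPM, and their lowest at Stage 9, at 98.0 and 153.6 CPM.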

How the data were processed

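Values are raw read counts, whole numbers for each gene in each library, as deposited by the authors without scaling. STAR was used, per the submitters' processing notes, which name no version. The sources used here give no build, annotation, counting settings or strand, so genes that share reads with a copy or an overlapping or antisense gene are uncertain. Stage and replicate were taken from the sample titles. Gene names and gene order came from a RefSeq gene table of assembly ASM307304v1, in which all 21131 identifiers were found. No sequence was used here.

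CPM was computed on column sums. Spread is the SD over libraries. Members, lists and tests were chosen with earlier results of these data known. Genes named are those with the 10 smallest ratios, those beside the threshold, and those of extreme level, extreme within-stage CV or adjacent position, besides genes said to be named after their values were seen. Lists by product name (gene classes, reference genes, cell types) and promoter or protein features could not be applied. The fit used edgeR 4.0.16 in R 4.3.3 (filterByExpr with minimum count 10, TMM, 1 coefficient per stage, quasi-likelihood F-test, Benjamini-Hochberg over 17441 genes). It was tested on simulated data. Alternatives were RLE, column sums, no filter, DESeq2 1.42.0, a replicate block, a 1.5-fold minimum, other bands and measures of steadiness, and each library left out. The counts behind the chosen genes are 260 reads or more in every library. The median counting CV, 2.86%, lay below the median within-stage CV, 5.10%. Over single genes the counting CV, as a median over libraries, reached 4.49% and the within-stage CV went down to 2.56%, so this need not hold for each gene. Counting error covers reads only, which are not independent molecules.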

Additional observations from a re-analysis of the deposited data

Results flagged for a closer look

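In 152 groups of 4 libraries tested for 1 library that stands apart (a gap to the nearest other library above 0.829 of the group's range), 12 were picked out, where chance alone gives 7.6. 

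The median level of the 150 genes, as a percent of each gene's own mean, set apart replicate 1 of Stage 9 (104.1% against 94.5% to 95.7%, gap 0.878), replicate 1 of Stage 8 (99.5% against 102.4% to 102.6%, gap 0.923) and replicate 3 of Stage 10 (99.9% against 101.9% to 102.3%, gap 0.842). Replicate 1 of Stage 9 was also the high library of LOC112563720 (317.1 CPM against 295.2 to 298.1, gap 0.866), LOC112567133 (262.3 CPM against 224.5 to 230.8, gap 0.835) and LOC112559260 (81.9 CPM against 51.1 to 55.8, gap 0.848), and replicate 2 of that stage the low library of LOC112559051 (46.7 CPM against 50.9 to 51.7, gap 0.847).

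At Stage 8 replicate 3 was high for LOC112571999 (569.0 CPM against 511.3 to 516.3, gap 0.913) and low for LOC112565583 (47.5 CPM against 49.9 to 50.3, gap 0.859). In the hatchling replicate 4 was high for LOC112553162 (55.7 CPM against 50.03 to 50.3, gap 0.958), replicate 3 for LOC112562034 (49.4 CPM against 39.7 to 40.8, gap 0.883), and replicate 1 was low for LOC112554319, a gene just outside the 150 (66.9 CPM against 78.9 to 81.3, gap 0.829). Groups of 3 libraries were not tested.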

How the results depend on the processing

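The choice of genes rested on the scaling: of the 150, TMM chose 3 again and DESeq2 size factors 3, against 112 to 149 when 1 library or 1 replicate number was left out. A band from 50 CPM chose 76, partly because members under 50 CPM cannot enter, the highest over the lowest single library 91, the CV of stage means 123, stage medians 125 and a band from 10 CPM 131. The median ratio of the 150 genes was 1.47 with TMM and 1.42 with size factors, and 1.21 to 1.22 with 1 library left out. Their median log2 ratio of hatchling to Stage 2, -0.45 with TMM, was -0.37 with RLE, -0.37 with DESeq2, -0.0022 with column sums and -0.48 without a filter, and -0.48 to -0.44 with 1 library left out. With column sums 94 of the 150 genes were called in the F-test and 51 for the hatchling against Stage 2. Of the 17441 tested genes, 16686 and 15083 were. Against a 1.5-fold minimum 14 of the 150 were called for that span and 0 in any step, where 12220 and 5394 of all genes were. Apart from the construction of each scaling and of the 1.5-fold test, the cause was not tested. LOC112558261 and LOC112559051, lower in the hatchling with TMM but not past the threshold with all libraries, were higher in the hatchling with column sums (edgeR adjusted p = 0.00362 and 0.000872), over alternatives from 0.00362 to 1 and from 0.000872 to 1. LOC112559051 was called lower without a filter (edgeR adjusted p = 0.0273), with a replicate block (0.0377) and with most single libraries left out. The ratios of the 27 genes named by rule moved by more than the spread between replicates in 26 cases with TMM, 24 with size factors and 6 with stage medians, and in 24 of 918 with 1 library left out.

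The correlation of deviations between same-numbered libraries of different stages, replicate 4 included, was over 0.1 in 5 of 141 pairs, with a median of -0.0054 and a range from -0.26 to 0.30, so the numbers are not taken to pair libraries. Stage 9 and the hatchling gave 0.135, 0.0741, 0.119 and -0.0068 for replicates 1 to 4. With a replicate block 149 of the 150 genes were called in the F-test, 149 for the hatchling against Stage 2 and 98 in any step. Of the 17441 tested genes, 16511, 14941 and 14339 were called in the same order. Each library value of the 150 genes rests on 260 reads or more. The counting CV of a gene, as a median over libraries, had a median of 2.86% and reached 4.49%.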
